A study of Homo sapiens with 12 samples.

Results

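The collagen genes were examined in 2 human tumour cell lines and 3 siRNA treatments. They were taken as the gene symbols that consist of COL, a number, A and a number on chromosomes 1 to 22 and X, which gave 44 genes of the 28163 symbols listed there. Each gene is represented by the transcript model whose fragment total across the 12 libraries was highest. The gene set was chosen with earlier results of these data known. By known structure, 11 genes were grouped as fibrillar, 8 as basement membrane (COL4A1 to COL4A6, COL15A1 and COL18A1) and 25 as other, a group that holds the type VI, fibril-associated, network-forming, transmembrane and anchoring collagens.

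PC3 is an established line from a prostate adenocarcinoma and MG63 an established line from an osteosarcoma, and both are labelled wild type. In each line, Lipofectamine RNAiMAX carried 1 of 3 siRNAs into the cells at 10 nM, and at 72 h the cells were used for poly(A) RNA-seq. The siRNAs were a non-targeting control, called siControl, and those directed at LARP4A and LARP4B, called siLARP4A and siLARP4B. The 6 groups held 2 libraries each, 12 in total. LARP4A (gene symbol LARP4) and its relative LARP4B are proteins that bind messenger RNA. The siRNA sequences and their number per target are not given in the sources used here. The series' text calls the 2 libraries of a group biological replicates, and no label says whether they came from separate cultures, so the p-values measure the spread between these libraries.

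Collagens are secreted or membrane-bound proteins in which 3 chains wind into a triple helix. Fibrillar collagens such as types I, III and V build the tensile fibres of bone, skin and stroma, and type IV forms the sheet-like network of basement membranes on which epithelia rest. The chains of a trimer are often products of different genes, so the balance between partner genes such as COL1A1 and COL1A2, or COL4A1 and COL4A2, bears on which trimers can form.

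Library totals behind the deposited FPM values ran from 16950119 to 24864977 fragments, and collagens took 0.261% to 0.320% of the gene fragments in PC3 and 2.59% to 3.34% in MG63. The targets were reduced: the log2 change of LARP4 with siLARP4A was -3.01 in PC3 and -1.94 in MG63, and that of LARP4B with siLARP4B was -2.48 and -1.69 (edgeR adjusted p at most 3.6e-14 in each). In PC3, 5 of 6 epithelial markers stood at 1 FPKM or more in all 6 libraries, while 4 of 4 luminal prostate markers stayed under 1 FPKM. MG63 had high VIM, THY1 and PDGFRB. VIM was also high in PC3, at 482 and 462 FPKM with siControl. Of the osteoblast genes of the list, RUNX2, SPP1, IBSP and SP7 stayed under 1 FPKM in MG63. There BGLAP stood at 5.14 to 7.76 FPKM, and ALPL reached 1.08 FPKM in 1 siLARP4A library and was under 1 FPKM in the rest. The epithelial markers summed to 852 to 869 FPKM in PC3 siControl, 994 to 1042 with siLARP4A and 796 to 823 with siLARP4B, and in MG63 to 71.5 to 72.2, 64.6 to 67.5 and 54.6 to 56.2 FPKM. The sum of the 9 mesenchymal and osteoblast markers is nearly all VIM in both lines. It was 465 to 485, 469 to 503 and 391 FPKM in PC3 and 3002 to 3017, 2412 to 2531 and 2660 to 2833 FPKM in MG63. The 3 endothelial and 3 leukocyte markers summed to at most 0.334 and 0.485 FPKM in PC3. In MG63 the endothelial sum ran from 3.77 to 4.08 FPKM with siControl, 5.98 to 6.83 with siLARP4A and 2.25 to 2.63 with siLARP4B, nearly all of it CDH5, with PECAM1 and VWF under 1 FPKM. Leukocyte markers in MG63 summed to 1.97 to 2.55, 2.30 to 2.62 and 1.04 to 1.19 FPKM in the same order, nearly all of it CD14, with CD3E at 0. The part of these marker shifts in the collagen results was not tested.

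Under siControl the lines held very different collagen repertoires. Of the 44 genes, 19 reached a group mean of 1 FPKM in at least 1 PC3 group and 24 did so in MG63, and 27 reached it in at least 1 group of either line. The other 17 are called low here. In PC3, COL6A1 led at 300.3 ± 13.8 FPKM (SD, n = 2), followed by COL6A2 at 49.7 ± 1.97, COL18A1 at 38.3 ± 0.734, COL5A2 at 34.1 ± 0.253 and COL4A5 at 20.9 ± 1.01. These 5 genes made up 85.6% of the summed collagen FPKM of PC3. The genes of the common type I and III fibrils were far lower there, with COL1A1 at 2.43 ± 0.061 FPKM and COL3A1 at 1.19 ± 0.104. In the order of PC3 levels, the neighbours COL17A1 and COL2A1, and COL8A1 and COL3A1, did not differ beyond their spread. In MG63 the order was COL3A1 at 776 ± 18.0 FPKM, COL1A1 at 745 ± 0.764, COL6A2 at 584 ± 10.8, COL6A3 at 581 ± 0.317, COL6A1 at 512 ± 14.2 and COL1A2 at 466 ± 11.6. COL6A2 and COL6A3, and lower down COL18A1 and COL16A1, did not differ beyond their spread. The same held for the neighbours COL5A3 and COL9A3, COL9A3 and COL7A1, and COL7A1 and COL22A1. The first 5 genes took 77.4% of the MG63 sum. The places of COL6A2 and COL18A1 in both lines rest on the transcript model chosen. With the longest model both had lower levels, and COL6A3, not COL6A2, led the other class in MG63 siControl.

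**Figure D1:**
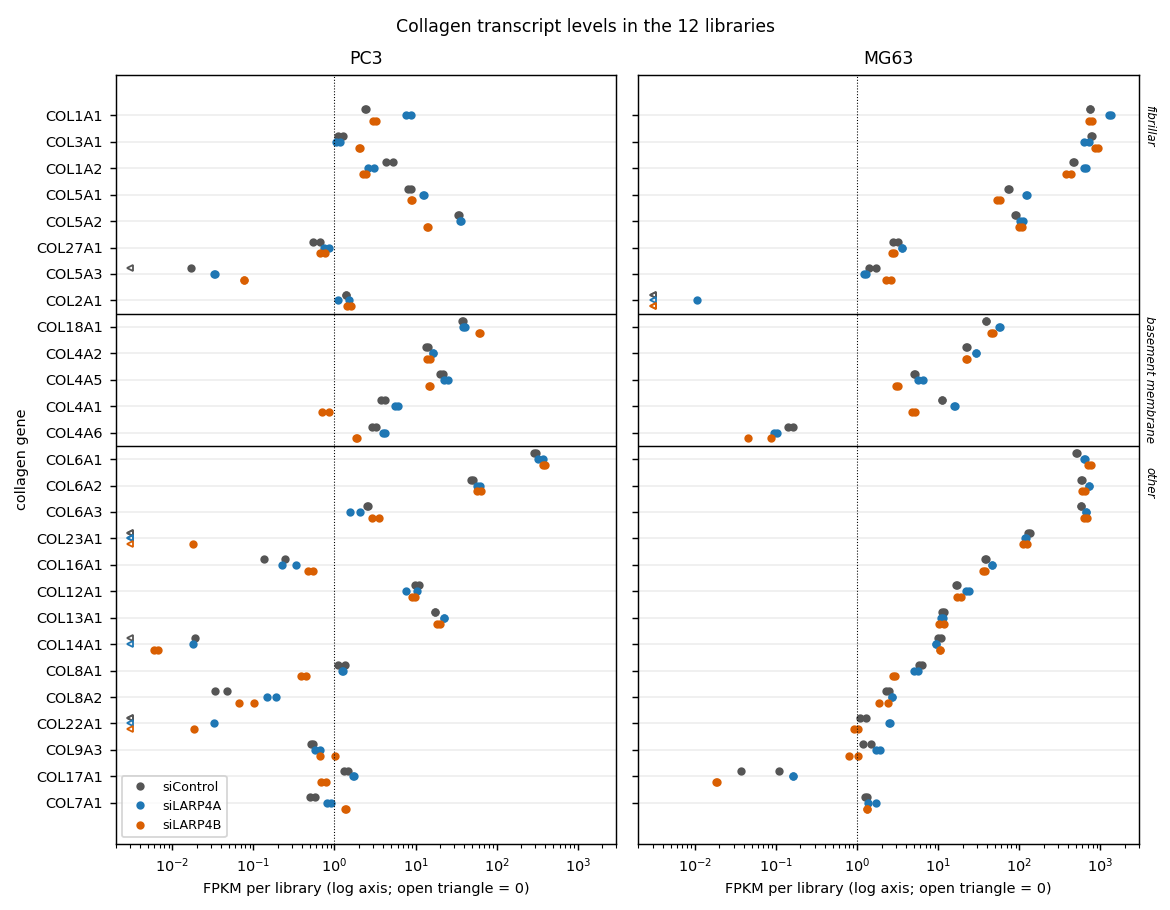
FPKM of the 27 collagens with a group mean of at least 1 FPKM (rows, by class) in the 6 PC3 and 6 MG63 libraries, on a log axis, coloured by siRNA; the dotted line marks 1 FPKM and an open triangle a value of 0. COL6A1 leads in PC3 with a siControl mean of 300.3 FPKM, while 6 genes of MG63 have siControl means of 466 FPKM or more, and COL4A1 lies lowest after siLARP4B in both lines.

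In the edgeR test of the siControl libraries, 24 of the 34 collagens that could be tested were lower in PC3 than in MG63 and 7 were higher. Of all 15672 genes tested, 81.8% passed, 39.7% as lower and 42.1% as higher. The fibrillar genes had a median log2 difference of -3.28, PC3 minus MG63, against 0.02 over all genes. COL3A1 was 652-fold and COL1A1 307-fold higher in MG63 by mean FPKM. COL23A1, a transmembrane collagen, had 126.5 and 133.8 FPKM in MG63 and no fragment in either PC3 siControl library, so it was at least 2195-fold higher in MG63 at a floor of 3 fragments per library. The basement membrane class gave a different picture, with summed levels of 80.1 FPKM in PC3 and 78.0 in MG63. Within it, COL4A5 (edgeR log2 1.86) and COL4A6 (log2 4.17) were higher in PC3, and COL4A1 (log2 -1.63) and COL4A2 (log2 -0.85) were higher in MG63. COL18A1 was alike by FPKM, at 38.3 against 38.7, and lower in PC3 by 0.17 on edgeR's log2 scale (adjusted p 0.0028), a scale that also carries the TMM factors of the lines. With limma on log2(FPKM + 1) that call was lost (-0.01). Elsewhere, COL2A1, the cartilage fibril gene, stood at 1.39 and 1.39 FPKM in PC3 and at 0 in both MG63 siControl libraries, at least 42.3-fold apart, and COL17A1, a transmembrane collagen of epithelial anchoring junctions, was 4.10 higher in PC3 on the log2 scale.

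Summed by class, fibrillar FPKM was lowest after siLARP4B in PC3, nearly all through COL5A2, and highest after siLARP4A in MG63. The fibrillar sum in PC3 was 53.8 and 52.0 FPKM with siControl, 62.0 and 63.4 with siLARP4A and 32.5 and 32.9 with siLARP4B, 3 ranges that did not overlap. In MG63 the same sum was 2131 and 2176 with siControl, 2952 and 2783 with siLARP4A and 2324 and 2108 with siLARP4B, so siLARP4A stood above the rest and siLARP4B overlapped siControl. COL5A2 alone made up 64.4% of the PC3 siControl sum, and COL3A1 36.0% of that in MG63. Between siControl and siLARP4B in PC3, the mean fibrillar sum went from 52.91 to 32.74 FPKM and COL5A2 from 34.05 to 13.97. Nearly all of that fall was thus COL5A2. Of the 9 fibrillar genes tested in that comparison, 3 were higher and 2 lower in edgeR, with a median log2 change of 0.21. The basement membrane sum in MG63 had a mean of 78.0 FPKM with siControl, 109 with siLARP4A (1.40 times siControl) and 77.5 with siLARP4B. In PC3 these means were 80.1, 89.7 and 93.1 FPKM. COL18A1 alone made up 47.9% of the PC3 sum with siControl and 65.7% with siLARP4B, and 49.7% and 60.1% in MG63. After siLARP4B, COL18A1 rose in both lines, while COL4A1 and COL4A5 fell in both and COL4A6 fell in PC3. The other class, led by type VI genes, had PC3 means of 385, 449 and 482 FPKM and MG63 means of 1897, 2248 and 2204 for siControl, siLARP4A and siLARP4B. With 2 libraries in a group no test of these sums was made. In bulk RNA, fewer cells that carry a transcript and less of it per cell cannot be told apart.

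**Figure D2:**
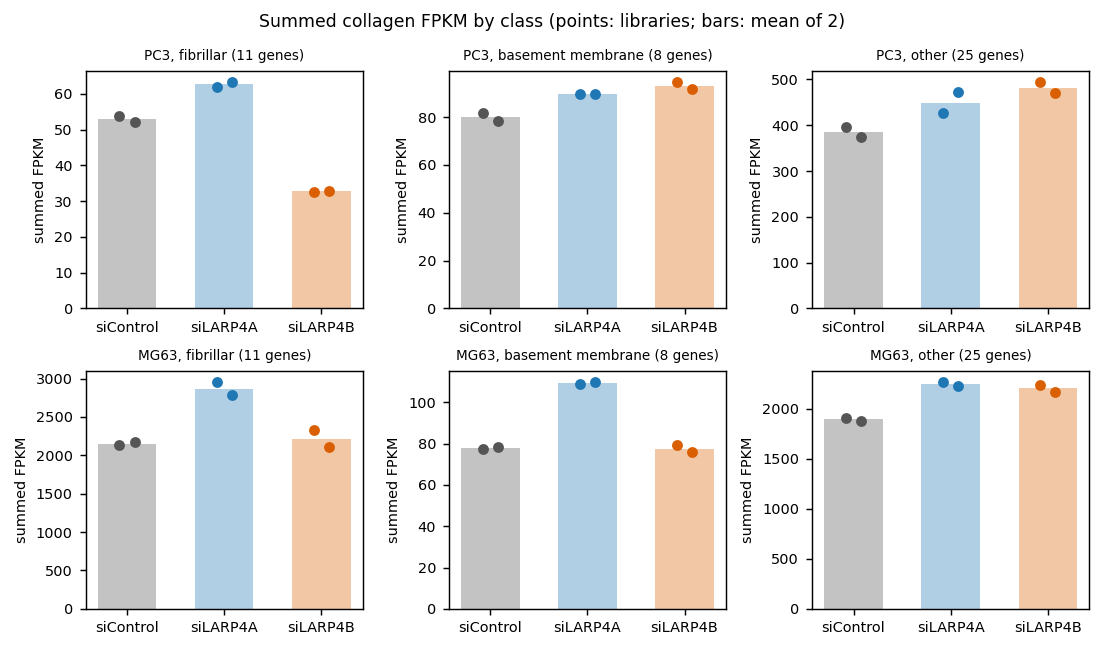
Summed FPKM of the fibrillar (11 genes), basement membrane (8) and other (25) collagens per library (points) with the mean of 2 libraries (bars), for each siRNA in PC3 (top) and MG63 (bottom); each panel has its own axis from 0. The PC3 fibrillar sum is lowest after siLARP4B at 32.7 FPKM, a fall from siControl that is nearly all COL5A2. The MG63 basement membrane sum is highest after siLARP4A at 109 FPKM.

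Gene by gene, 34 of the 44 collagens passed the low-count filter and could be tested; COL10A1, COL11A1, COL20A1, COL26A1, COL28A1, COL4A3, COL6A5, COL6A6 and COL9A1 had too few fragments, and COL11A2 has further copies on alternate contigs. After siLARP4A, 13 collagens were higher and 2 lower in PC3, 44.1% of those tested, where 36% of all genes passed, 17% as higher and 19% as lower. In MG63, 17 were higher and 1 lower, 52.9% of those tested, where 26.4% of all genes passed, 14.5% as higher and 11.9% as lower. The median collagen log2 change was 0.24 in PC3 and 0.32 in MG63, against 0.00 and 0.01 over all genes. After siLARP4B, 9 collagens were higher and 7 lower in PC3, where 44.7% of all genes passed, 21.3% as higher and 23.4% as lower. In MG63, 6 were higher and 7 lower, where 35.1% of all genes passed, 18.8% as higher and 16.3% as lower. These 47.1% and 38.2% of the tested collagens lie near the background, and the medians were 0.16 and -0.06, against 0.00 in each line over all genes.

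Each siRNA can be compared across lines because the lines have separate controls. After siLARP4A, 8 collagens rose in both lines: COL1A1, COL27A1, COL4A1, COL4A2, COL4A5, COL5A1, COL6A1 and COL6A2. None fell in both, and COL1A2 and COL6A3 passed in opposite directions. After siLARP4B, 5 rose in both (COL18A1, COL3A1, COL5A3, COL6A1 and COL6A3), 6 fell in both (COL17A1, COL1A2, COL4A1, COL4A5, COL4A6 and COL8A1), and COL5A2 passed in opposite directions. These 10 and 12 genes are 29.4% and 35.3% of the tested collagens, where 15.9% and 19.9% of all genes passed in both lines. Over all 15672 genes, 1190 rose and 1116 fell in both lines after siLARP4A, and 187 passed in opposite directions. After siLARP4B these counts were 1174, 1391 and 553. Some alternatives lost the call in at least 1 line for COL27A1, COL4A5 and COL6A3 after siLARP4A. After siLARP4B the same held for COL17A1, COL1A2, COL4A6, COL5A3 and COL6A3.

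**Figure D3:**
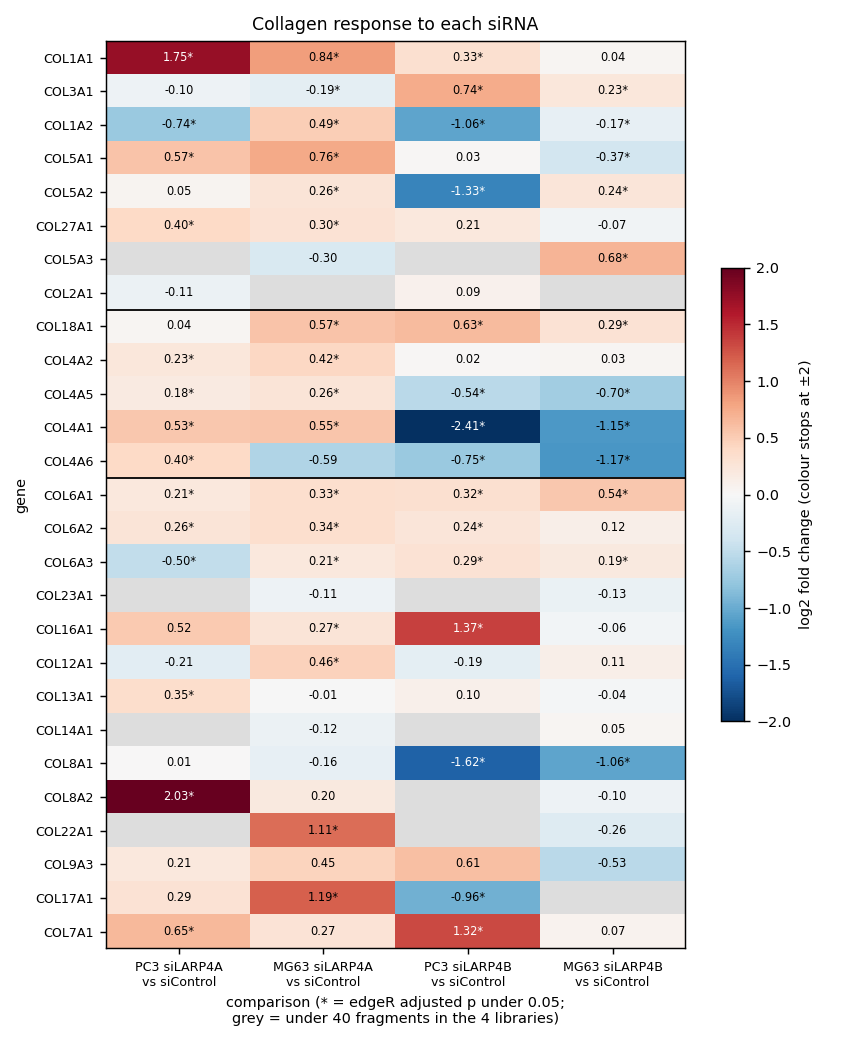
Log2 fold changes of the 27 collagens (rows; horizontal lines separate fibrillar, basement membrane and other) for each siRNA against siControl in each line, from the edgeR fit of all 12 libraries; an asterisk marks an adjusted p under 0.05 and grey a gene with under 40 fragments in the 4 libraries compared. COL4A1 is blue in both siLARP4B columns (-2.41 in PC3 and -1.15 in MG63) beside a near-white COL4A2 (0.02 and 0.03).

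Among the fibrillar genes, COL1A1 and COL1A2, which encode the 2 kinds of chain of type I collagen, moved apart in PC3. COL1A1 (hg38 chromosome 17, 50184101 to 50201631) stood at 2.38 and 2.47 FPKM with siControl, 7.60 and 8.90 with siLARP4A and 3.03 and 3.24 with siLARP4B. It rose after siLARP4A (log2 1.75, SE 0.076, edgeR adjusted p 1.6e-13) and by 0.33 after siLARP4B (SE 0.089, edgeR adjusted p 0.0045). COL1A2 (chromosome 7, 94394895 to 94431227) stood at 5.21 and 4.29, 3.08 and 2.59, and 2.43 and 2.25 FPKM in the same order. It fell after siLARP4A (log2 -0.74, SE 0.10, edgeR adjusted p 5.1e-06) and by 1.06 after siLARP4B (SE 0.11, edgeR adjusted p 4.5e-08). The FPKM ratio of COL1A1 to COL1A2 was thus 0.457 and 0.576 in the siControl libraries, 2.47 and 3.44 after siLARP4A and 1.25 and 1.44 after siLARP4B, 3 ranges that did not overlap.

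In MG63, where type I collagen is abundant, the partners rose together after siLARP4A. COL1A1 went from 744 and 745 FPKM to 1337 and 1295, a rise of 0.84 in log2 (SE 0.051, edgeR adjusted p 6.3e-11). COL1A2 went from 458 and 474 to 660 and 634 FPKM, a rise of 0.49 (SE 0.062, edgeR adjusted p 2.9e-06). The difference between the lines in the siLARP4A effect on COL1A2 was -1.23 on the log2 scale, PC3 minus MG63 (edgeR adjusted p 5.1e-07), which makes COL1A2 one of 7 collagens that passed this test. With 3 higher and 4 lower, they are 20.6% of those tested, where 11.4% of all genes passed, 4.09% as higher and 7.29% as lower. After siLARP4B, MG63 COL1A1 had 787 and 719 FPKM and did not pass (log2 0.04), and COL1A2 had 435 and 379 FPKM, a change of -0.17 (edgeR adjusted p 0.040) that passed. This call was lost in 7 of 22 alternatives, with edgeR adjusted p 0.36 without siLARP4B replicate 2, and 0.077 and 0.17 without siControl replicate 1 or 2. The ratio of COL1A1 to COL1A2 in MG63 was 1.63 and 1.57 with siControl, 2.03 and 2.04 with siLARP4A and 1.81 and 1.90 with siLARP4B, 3 ranges that did not overlap.

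COL3A1, the fibril gene of distensible tissues such as skin and vessels, differed between the siRNAs. It had 1.12 and 1.26 FPKM in PC3 siControl, 1.18 and 1.05 after siLARP4A and 2.02 and 2.09 after siLARP4B, the last a rise of 0.74 (SE 0.12, edgeR adjusted p 1.8e-05). In MG63 it had 763 and 788, 714 and 629, and 931 and 852 FPKM. The rise after siLARP4B was 0.23 (edgeR adjusted p 0.0015), and the change after siLARP4A was -0.19 (edgeR adjusted p 0.0087), a call that was lost without siLARP4A replicate 2 (log2 -0.11, edgeR adjusted p 0.18) or siControl replicate 2 (log2 -0.18, edgeR adjusted p 0.066). COL3A1 was lower with siLARP4A than with siLARP4B in both lines (log2 -0.84 and -0.42).

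The type V genes, whose products help start fibrils and set their width, responded differently in the lines. COL5A2 (chromosome 2, 189031898 to 189179761) stood at 34.2 and 33.9 FPKM in PC3 siControl, 35.2 and 36.0 after siLARP4A and 13.8 and 14.1 after siLARP4B. It fell after siLARP4B to 39.8% of siControl (log2 -1.33, SE 0.053, edgeR adjusted p 1.3e-14). In MG63 it stood at 88.6 and 90.0, 110.3 and 101, and 107 and 100 FPKM. There it rose after siLARP4A by 0.26, and after siLARP4B by 0.24 (SE 0.048, edgeR adjusted p 4.2e-04). The siLARP4B effect differed between the lines by -1.57 (SE 0.071, edgeR adjusted p 4.9e-12), the largest absolute value among the 13 collagens that passed, COL5A3 apart. Of these, 8 were higher and 5 lower, 38.2% of those tested, where 27.9% of all genes passed, 10.3% as higher and 17.6% as lower. COL5A1 rose after siLARP4A in both lines, from 8.91 and 8.04 to 12.9 and 12.4 FPKM in PC3 (log2 0.57) and from 73.1 and 73.7 to 125.5 and 119.7 FPKM in MG63 (log2 0.76). After siLARP4B, COL5A1 had 8.95 and 8.85 FPKM in PC3, overlapping siControl, and it fell in MG63 to 58.4 and 52.7 FPKM (log2 -0.37, edgeR adjusted p 8.3e-06).

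COL5A3 had 1.41 and 1.70 FPKM in MG63 siControl and 2.60 and 2.28 after siLARP4B, a rise of 0.68 (edgeR adjusted p 3.4e-04). Its PC3 call after siLARP4B rests on 9 and 8 fragments against 0 and 2 with siControl, and no fold is given here. COL27A1, a fibrillar collagen known from cartilage, passed after siLARP4A in both lines (log2 0.40 and 0.30), and these calls were lost in 9 and 5 of 22 alternatives. In PC3 the call was lost without siControl replicate 1 (0.30), siLARP4A replicate 1 (0.30) or either MG63 siLARP4A library (0.39). In MG63 it was lost without siControl replicate 2 (0.18) or siLARP4A replicate 1 or 2 (0.30 and 0.28). COL2A1 in PC3 ran from 1.12 to 1.62 FPKM over the 6 libraries and passed in neither comparison. COL24A1 is a low gene, and its PC3 call after siLARP4A (edgeR adjusted p 0.047) compares 11 and 13 fragments with 2 and 4.

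Among the basement membrane genes, COL4A1 had the largest siLARP4B changes that passed, apart from COL4A6 in MG63, a gene with at most 20 fragments per library there. COL4A1 (chromosome 13, 110148963 to 110307157, minus strand) encodes the α1 chain of the ubiquitous type IV network. It stood at 3.80 and 4.17 FPKM in PC3 siControl, 6.02 and 5.56 after siLARP4A and 0.694 and 0.857 after siLARP4B. In MG63 it stood at 11.11 and 11.03, 15.9 and 16.2, and 4.71 and 5.12 FPKM. The 3 siRNA groups did not overlap in either line, with siLARP4A highest and siLARP4B lowest. COL4A1 fell after siLARP4B to 18.8% of siControl in PC3 (log2 -2.41, SE 0.11, edgeR adjusted p 7.2e-14) and to 45.2% in MG63 (log2 -1.15, SE 0.070, edgeR adjusted p 4.9e-11). The difference between the lines was -1.26 (edgeR adjusted p 3.3e-07). After siLARP4A it rose by 0.53 and 0.55.

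COL4A2 (chromosome 13, 110307284 to 110513209, plus strand) encodes the partner chain and starts 126 bases from COL4A1 on the opposite strand, so the pair shares its upstream region. COL4A2 had 14.1 and 13.5 FPKM in PC3 siControl, 16.3 and 16.3 after siLARP4A and 14.9 and 13.9 after siLARP4B. In MG63 it had 22.2 and 22.4, 29.4 and 29.6, and 22.9 and 21.9 FPKM. It rose after siLARP4A by 0.23 (edgeR adjusted p 0.0016) and 0.42 (edgeR adjusted p 1.5e-06), whereas after siLARP4B its changes of 0.02 (SE 0.054) and 0.03 (SE 0.051) did not pass, and the siLARP4B libraries overlapped those of siControl. The FPKM ratio of COL4A1 to COL4A2 was 0.269 and 0.309 in PC3 siControl and 0.0465 and 0.0616 after siLARP4B. In MG63 it was 0.50 and 0.49 against 0.206 and 0.233. No test of the ratio was made. COL4A2 has 2 antisense genes on its other strand, COL4A2-AS1 and COL4A2-AS2, and the strand setting of the counting is not given in the sources used here.

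**Figure D4:**
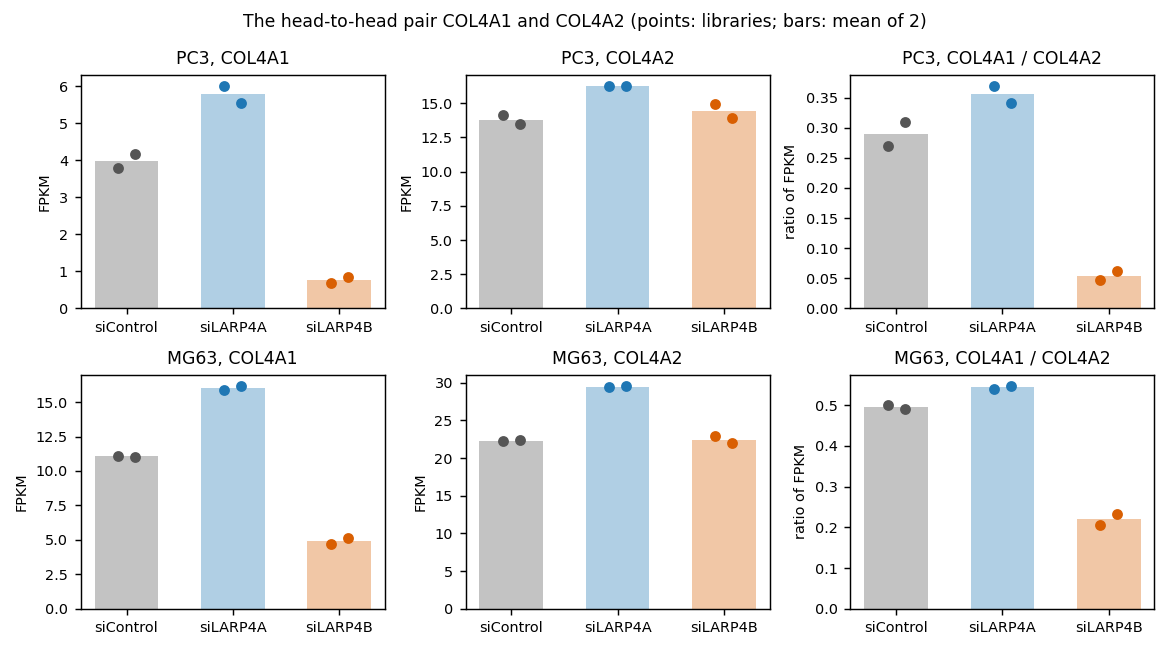
FPKM of COL4A1 and COL4A2 and their ratio per library (points) with the mean of 2 libraries (bars), for each siRNA in PC3 (top) and MG63 (bottom); each panel has its own axis from 0. The COL4A2 bars of siControl and siLARP4B are level (13.8 and 14.4 FPKM in PC3), while COL4A1 drops from 3.98 to 0.776 FPKM in PC3 and from 11.1 to 4.91 in MG63.

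The stretch between the 2 starts is shown because the genes on its sides parted after siLARP4B, and the upstream stretches of COL4A5 and COL4A6 because those genes, which also lie head to head, 1407 bases apart, both fell after siLARP4B. The sequences come from RefSeq on GRCh38.p14, where 32 of the 44 collagens had an entry, and read 5′ to 3′ on the strand named. Capitals mark matches to 3 promoter motifs. The GC box was searched as GGGCGG, the CCAAT box by the letters of its name and the TATA box was searched as TATAAA. Each was also searched on the opposite strand by its reverse complement, and no matches overlap.
COL4A1-COL4A2, chr13:110307158-110307283, plus strand, the strand of COL4A2: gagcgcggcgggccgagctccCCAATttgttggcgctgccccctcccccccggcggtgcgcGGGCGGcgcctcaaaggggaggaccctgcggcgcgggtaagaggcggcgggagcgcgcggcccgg
COL4A5, chrX:108439588-108439837, plus strand: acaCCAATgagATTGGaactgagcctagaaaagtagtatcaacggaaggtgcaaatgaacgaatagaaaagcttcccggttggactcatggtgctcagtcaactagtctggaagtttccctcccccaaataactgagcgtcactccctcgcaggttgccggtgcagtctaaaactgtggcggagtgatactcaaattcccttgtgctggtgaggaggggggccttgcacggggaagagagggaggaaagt
COL4A6, chrX:108438431-108438672, minus strand: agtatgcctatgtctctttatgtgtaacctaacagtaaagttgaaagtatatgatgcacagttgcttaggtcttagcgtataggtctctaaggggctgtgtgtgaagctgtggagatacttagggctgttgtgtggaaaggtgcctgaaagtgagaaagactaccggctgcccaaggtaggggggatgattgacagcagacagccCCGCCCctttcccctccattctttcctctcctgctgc
The 126 bases of the COL4A1-COL4A2 stretch are 80.2% G and C and hold 1 GC box and 1 CCAAT box, and no TATA box was found. Of 35116 promoter windows of that length, 34.6% hold a GC box, 21.1% a CCAAT box and 5.87% a TATA box. The 250 bases of COL4A5 hold 2 CCAAT boxes, which 32% of windows of that length hold at least 1 of, and the 242 bases of COL4A6 hold 1 GC box, found in 42.3% of such windows. These matches describe the letters of the windows and nothing about binding.

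COL4A5 and COL4A6 encode the α5 and α6 chains found in specialised epithelial basement membranes. COL4A5 stood at 21.6 and 20.1 FPKM in PC3 siControl, 24.9 and 22.8 after siLARP4A and 14.7 and 14.9 after siLARP4B, a fall in the last (log2 -0.54, SE 0.062, edgeR adjusted p 2.9e-07). MG63 had 5.07 and 5.21, 6.43 and 5.69, and 3.20 and 3.01 FPKM, with a fall after siLARP4B (log2 -0.70, SE 0.082, edgeR adjusted p 8.5e-07). Its rises after siLARP4A were 0.18 and 0.26, with calls lost in 3 and 4 of 22 alternatives. The PC3 call was lost without siControl replicate 2 (0.15) or siLARP4A replicate 1 (0.14), and the MG63 call without either siControl library (0.23 and 0.26) or siLARP4A replicate 1 (0.16). COL4A6 in PC3 followed the same order, with 3.25 and 2.87, 4.16 and 3.98, and 1.87 and 1.88 FPKM, up by 0.40 after siLARP4A (edgeR adjusted p 0.0016) and down by 0.75 after siLARP4B (edgeR adjusted p 4.5e-06). In MG63 COL4A6 stayed under 0.17 FPKM, and its call after siLARP4B compares 6 and 11 fragments with 20 and 18. It was lost without siControl replicate 1 (log2 -1.06, edgeR adjusted p 0.10) or siLARP4B replicate 1 (log2 -0.78, edgeR adjusted p 0.21).

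COL18A1, a proteoglycan-like basement membrane collagen whose C-terminal fragment is endostatin, rose after siLARP4B in both lines and after siLARP4A in MG63. PC3 had 38.9 and 37.8 FPKM with siControl, 38.3 and 41.0 with siLARP4A and 62.4 and 60.0 with siLARP4B. MG63 had 38.3 and 39.1, 56.2 and 57.3, and 47.9 and 45.2 FPKM. The rise was 0.63 in PC3 after siLARP4B (SE 0.049, edgeR adjusted p 5.7e-10), and 0.57 and 0.29 in MG63 after siLARP4A and siLARP4B (edgeR adjusted p 1.3e-08 and 6.7e-05). PC3 siLARP4A overlapped siControl and did not pass (log2 0.04). The lines differed by -0.53 in the siLARP4A effect and by 0.34 in that of siLARP4B (edgeR adjusted p 2.1e-05 and 8.2e-04). COL18A1 overlaps SLC19A1 and 2 antisense genes on the opposite strand. COL15A1, its close relative, reached 0.931 FPKM at most and rose in MG63 after siLARP4A, from 41 and 53 fragments to 85 and 78 (log2 0.86, edgeR adjusted p 0.010). COL4A4 had 0 or 1 fragment per PC3 library, and COL4A3 stayed under 0.07 FPKM.

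COL6A1, a gene of type VI collagen, the beaded microfibril protein around cells, had the highest FPKM of the collagens in PC3. The ratio of COL6A1 to COL6A2 in PC3 siControl was 6.07 and 6.02, and that of COL6A3 to COL6A1 was 0.00839 and 0.00863. COL6A1 had 310 and 290.5 FPKM in PC3 siControl, 329 and 371 after siLARP4A and 394 and 377 after siLARP4B. In MG63 it had 522 and 502, 646 and 627, and 756 and 701 FPKM. It rose after each siRNA in each line, by 0.21 and 0.33 after siLARP4A and by 0.32 and 0.54 after siLARP4B, with siControl below the rest (edgeR adjusted p at most 0.0034). COL6A2 rose after siLARP4A in both lines (0.26 and 0.34) and after siLARP4B in PC3 (0.24), while MG63 siLARP4B did not pass (log2 0.12, edgeR adjusted p 0.075). COL6A3, which encodes the longest of these chains, is the exception in PC3, with 2.60 and 2.51 FPKM with siControl, 2.04 and 1.56 with siLARP4A and 3.54 and 2.89 with siLARP4B. It fell after siLARP4A (log2 -0.50, edgeR adjusted p 1.9e-04). Its other 3 calls were rises of 0.29 (PC3 siLARP4B), 0.21 and 0.19 (MG63), lost in 4, 8 and 7 of 22 alternatives, with adjusted p up to 0.28. The PC3 call was lost without siLARP4B replicate 1 (0.17). The MG63 calls were lost without either siControl library, either siLARP4A library (0.19 and 0.21) or siLARP4B replicate 2 (0.13). The ratio of COL6A1 to COL6A2 in MG63 was 0.881 and 0.870 with siControl, 0.886 and 0.863 with siLARP4A and 1.17 and 1.17 with siLARP4B. In both lines these ratios use the COL6A2 model with most fragments. They were not recomputed with the longest model, which gives COL6A2 a lower level.

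COL8A1, a network-forming collagen of vessel wall and cornea, fell after siLARP4B in both lines. PC3 had 1.36 and 1.12 FPKM with siControl, 1.27 and 1.24 with siLARP4A and 0.384 and 0.444 with siLARP4B, a fall (log2 -1.62, SE 0.17, edgeR adjusted p 9.2e-08). MG63 had 6.25 and 5.84, 5.64 and 5.04, and 2.93 and 2.76 FPKM, a fall after siLARP4B (log2 -1.06, SE 0.094, edgeR adjusted p 1.2e-08). Its siLARP4A changes of 0.01 and -0.16 did not pass. COL8A2 had 3 to 22 fragments per PC3 library, and its PC3 call after siLARP4A (log2 2.03, edgeR adjusted p 0.0031) compares 22 and 13 fragments with 4 and 3. With limma on log2(FPKM + 1) this call was lost (0.17, limma adjusted p 0.13).

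COL7A1, which forms the anchoring fibrils beneath epithelia, and COL17A1 moved in opposite directions in PC3 after siLARP4B. COL7A1 had 0.507 and 0.569 FPKM with siControl, 0.802 and 0.908 with siLARP4A and 1.37 and 1.40 with siLARP4B, rises of 0.65 (edgeR adjusted p 0.0012) and 1.32 (edgeR adjusted p 6.3e-08). In MG63 it ran from 1.24 to 1.69 FPKM and passed in neither comparison, and the siLARP4B effect differed between the lines by 1.24 (edgeR adjusted p 2.4e-05). COL17A1 had 1.47 and 1.32 FPKM in PC3 siControl, 1.76 and 1.67 after siLARP4A and 0.688 and 0.788 after siLARP4B, a fall (log2 -0.96, edgeR adjusted p 8.1e-05). In MG63 it had 2 to 17 fragments per library. Its 2 calls there were lost in 10 and 6 of 22 alternatives, and no fold is given. The siLARP4A call was lost, among others, without siControl replicate 2 (edgeR adjusted p 0.44), and the siLARP4B call without siControl replicate 1 (edgeR adjusted p 0.54).

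The fibril-associated and transmembrane members that passed did so mostly in 1 line. COL12A1, a fibril-associated collagen of tendon and stroma, rose in MG63 after siLARP4A, from 16.7 and 17.2 to 23.7 and 22.3 FPKM (log2 0.46, edgeR adjusted p 2.9e-04), and its PC3 changes of -0.21 and -0.19 did not pass. COL16A1 rose in MG63 after siLARP4A from 39.0 and 38.2 to 45.5 and 46.0 FPKM (log2 0.27, edgeR adjusted p 0.0014) and in PC3 after siLARP4B from 0.134 and 0.242 to 0.472 and 0.545 FPKM (log2 1.37, edgeR adjusted p 1.1e-04). COL22A1, known from tissue junctions of muscle and tendon, rose in MG63 after siLARP4A from 1.28 and 1.08 to 2.47 and 2.56 FPKM (log2 1.11, edgeR adjusted p 2.1e-05), and had at most 4 fragments in any PC3 library. COL13A1 rose in PC3 after siLARP4A from 17.6 and 17.3 to 22.4 and 22.3 FPKM (log2 0.35, edgeR adjusted p 2.9e-04). COL14A1 and COL23A1 passed in neither MG63 comparison, where they stood at 9.48 to 10.97 and 109.6 to 134 FPKM. COL9A3 passed in no comparison with siControl, although its siLARP4B effect differed between the lines by 1.14 (edgeR adjusted p 0.023, lost in 5 of 21 alternatives), and it overlaps TCFL5 on the other strand.

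The 17 low members were COL10A1, COL11A1, COL11A2, COL15A1, COL19A1, COL20A1, COL21A1, COL24A1, COL25A1, COL26A1, COL28A1, COL4A3, COL4A4, COL6A5, COL6A6, COL9A1 and COL9A2. Their highest value in any library was the 0.931 FPKM of COL15A1 in MG63. COL6A5 had no fragment in any library. COL11A2 had 14 fragments over the 12 libraries at its own locus and 100 on 6 alternate contigs, so its level is uncertain. Besides COL15A1 and COL24A1, the tested low members passed in no comparison with siControl in edgeR.

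The siRNAs were also set directly against each other. In PC3, 12 collagens were higher with siLARP4A than with siLARP4B and 5 were lower, where 54.2% of all genes passed, 27% as higher and 27.1% as lower. In MG63, 17 were higher and 3 lower, where 43.5% of all genes passed, 22.1% as higher and 21.5% as lower. The basement membrane genes had a median log2 difference of 0.20 in PC3 and 0.95 in MG63, siLARP4A minus siLARP4B, against 0.00 and 0.01 over all genes. COL4A1 led, at 2.94 in PC3 (SE 0.10, edgeR adjusted p 5.7e-16) and 1.70 in MG63 (SE 0.068, edgeR adjusted p 3.4e-14). COL1A1 was higher with siLARP4A by 1.42 and 0.80, and COL5A1 by 0.54 and 1.13. COL18A1 was lower with siLARP4A in PC3 (-0.60) and higher in MG63 (0.28).

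Collagen chains are hydroxylated, glycosylated, folded and exported before secretion, then trimmed, cross-linked and bound by receptors. A list of 52 such genes was examined in the same fit, and 49 could be tested. After siLARP4A, 14 were higher and 13 lower in PC3, and 26 were higher and 4 lower in MG63. These are 55.1% and 61.2% of those tested, where 36% and 26.4% of all genes passed. After siLARP4B, 20 were higher and 9 lower in PC3, and 15 were higher and 13 lower in MG63, 59.2% and 57.1% of those tested, where 44.7% and 35.1% of all genes passed. Their median log2 changes were 0.01, 0.24, 0.19 and 0.01 in that order, against 0.00, 0.01, 0.00 and 0.00 over all genes. The 7 tested collagen receptors and uptake genes all rose in MG63 after siLARP4A, with a median of 0.54, where 26.4% of all genes passed, 14.5% as higher. The ITGA10 call among them was lost without MG63 siControl replicate 2 or siLARP4A replicate 2. After siLARP4B 3 of the 7 fell there with none higher, where 16.3% of all genes passed as lower. DDR1, a receptor on several contigs, could not be tested. Of the 8 folding and export genes, 6 rose in PC3 after siLARP4B and none fell, where 44.7% of all genes passed, 21.3% as higher, with FKBP14, a chaperone of collagen folding, at 0.68 in PC3 and 0.77 in MG63.

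Those with the largest changes are named by the rule in the processing notes. ITGA2, the α2 subunit of a collagen-binding integrin, had 17.6 and 18.5 FPKM in PC3 siControl and 4.96 and 5.30 after siLARP4B (log2 -1.86, edgeR adjusted p 9.0e-15), and in MG63 it rose by 0.82 after siLARP4A and fell by 0.75 on the log2 scale after siLARP4B. PLOD2, the lysyl hydroxylase of telopeptide cross-links, fell after siLARP4B from 29.0 and 28.5 to 9.27 and 9.90 FPKM in PC3 (log2 -1.63, edgeR adjusted p 2.2e-12) and from 69.0 and 65.3 to 42.7 and 34.7 FPKM in MG63 (log2 -0.76, edgeR adjusted p 8.1e-08). SPARC, a collagen-binding matrix protein, rose in PC3 after siLARP4B from 5.34 and 4.15 to 10.0 and 9.97 FPKM (log2 1.03). THBS1, thrombospondin 1, rose in MG63 after siLARP4A by 1.07 and fell there after siLARP4B by 0.88 on the log2 scale. TLL1, a procollagen C-proteinase, fell in PC3 after siLARP4A (log2 -1.11). COLGALT2, ITGA10, P4HA3 and BGN were also named by that rule, at group means of 1.23 FPKM or less in the comparisons concerned: COLGALT2 rose by 1.17 and 1.39 after siLARP4A in PC3 and MG63, ITGA10 by 1.29 in MG63 after siLARP4A and by 1.22 in PC3 after siLARP4B, and P4HA3 by 0.98 in PC3 after siLARP4A, where BGN fell (log2 -1.51). The ITGA10 call in MG63 was lost without siControl replicate 2 or siLARP4A replicate 2 (log2 1.17 and 0.96, edgeR adjusted p 0.069 and 0.13). The P4HA3 call was lost with DESeq2 (log2 0.98, adjusted p 0.14), and in edgeR without PC3 siControl replicate 2 or siLARP4A replicate 1 (log2 0.75 and 0.73, adjusted p 0.14 and 0.16). The BGN call was lost without PC3 siControl replicate 1 (log2 -1.27, edgeR adjusted p 0.087). LARP6, which binds a stem-loop of the COL1A1, COL1A2 and COL3A1 messages, rose after each siRNA in each line, by 0.34 and 0.30 after siLARP4A and by 0.37 and 0.25 after siLARP4B (edgeR adjusted p at most 0.021).

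**Figure D5:**
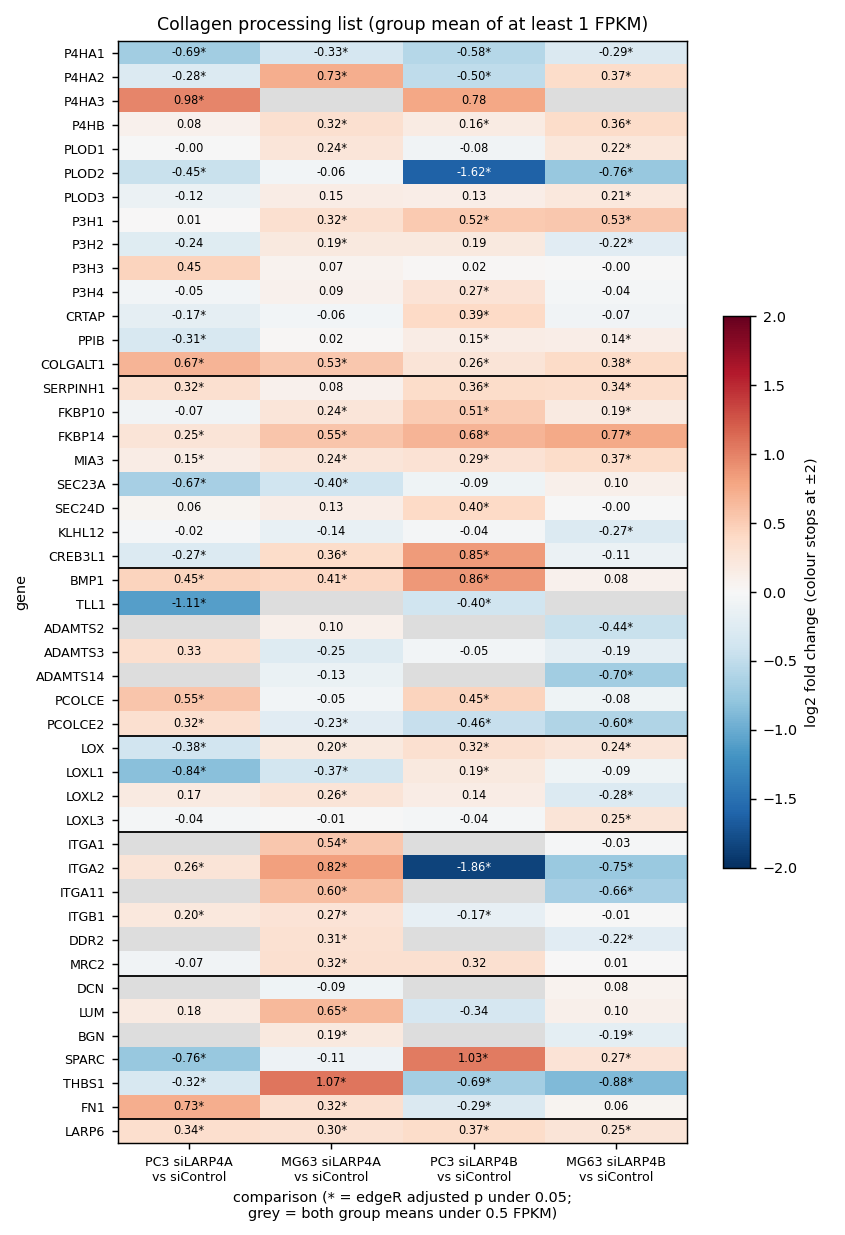
Log2 fold changes of the genes of the collagen processing list with a group mean of at least 1 FPKM (rows, in the order modification, folding and export, propeptide removal, cross-linking, receptors, fibril-associated proteins and LARP6), for each siRNA against siControl in each line; an asterisk marks an edgeR adjusted p under 0.05 and grey a gene with both means under 0.5 FPKM. PLOD2 (-1.63 in PC3 and -0.76 in MG63) and ITGA2 (-1.86 and -0.75) are blue in both siLARP4B columns.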

How the data were processed

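RNA-seq of 12 libraries was used, 2 for each of 3 siRNAs in 2 lines. The deposited tables hold, for each of 86394 transcript models, a fragment count, an FPM value (scaled to sequencing depth) and an FPKM value (scaled to depth and transcript length), made by the authors, per the file headers. FastQC, HISAT2, featureCounts, edgeR and the build hg38 are named in the submitters' processing notes. Their roles, versions and the strand setting are not given in the sources used here. An unnamed extra column in 3 tables, with values for 6 genes, was not used.

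One model per symbol was kept on chromosomes 1 to 22 and X, the one with most fragments over the 12 libraries, and symbols with models at several loci were not tested. The fragment counts, as deposited, were fitted in edgeR 4.0.16 (R 4.3.3) with TMM factors, a filter on low counts, a mean per group over all 12 libraries and the quasi-likelihood test. This gave 15672 genes tested, 9 comparisons, Benjamini-Hochberg adjustment over all genes and a threshold of 0.05. The biological coefficient of variation was 4.21%. Levels are deposited FPKM values, which carry no TMM factor, and class sums add them. Scripts were tested on simulated data.

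No label says whether replicate numbers pair the samples, and the main fit used no pairing. Same-numbered libraries of a line had deviations correlated at -0.03 to 0.05. With 2 libraries per group such values cannot show that the samples were unpaired. Replicates differed by more than counting noise (chi-square per degree of freedom 1.61 to 6.04). Alternatives used DESeq2 1.42.0, limma 3.58.1 on log2(FPKM + 1), RLE factors, other filters, model and locus rules, deduplicated counts of PC3 siControl replicate 2, each line alone, a replicate block and each library left out. All collagens matched by the symbol rule could be named. LARP4, LARP4B and LARP6 were always named, and of the processing list at most the 4 genes per comparison with the largest absolute log2 change of at least 0.58 among those past the threshold. FKBP14 in PC3 and the second-line values of named genes were added after their values were seen. The members and lists were chosen with earlier results of these data known.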

Additional observations from a re-analysis of the deposited data

Results flagged for a closer look

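Collagens whose siRNA effect differed between the lines in edgeR's interaction test are given as the log2 effect in PC3 minus that in MG63. For siLARP4A, where 11.4% of all genes passed, 7 collagens did. The differences were 0.91 for COL1A1, -1.23 for COL1A2, -0.53 for COL18A1, -0.67 for COL12A1, 0.36 for COL13A1, -0.71 for COL6A3 and 1.83 for COL8A2. COL1A1 rose in both lines, by more in PC3, while COL1A2 and COL6A3 passed in opposite directions. The COL8A2 value is a fitted one that rests on 22 and 13 PC3 fragments against 4 and 3. Of the 7 calls, 5 were kept in all alternatives that gave a value. That of COL8A2 was lost in 5 of 21, among them without either PC3 siControl library (2.14 and 1.64), PC3 siLARP4A replicate 1 (1.66) or MG63 siControl replicate 2 (1.78). That of COL13A1 was lost without MG63 siControl replicate 1 or siLARP4A replicate 1 (0.33 and 0.32).

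For siLARP4B, where 27.9% of all genes passed, 13 collagens did. Among the fibrillar genes the differences were 0.28 for COL1A1, -0.89 for COL1A2, 0.51 for COL3A1, 0.40 for COL5A1, -1.57 for COL5A2 and 2.25 for COL5A3, the last a fitted value that rests on 9 and 8 PC3 fragments against 0 and 2. In the basement membrane class they were -1.26 for COL4A1 and 0.34 for COL18A1. Of the rest, COL6A1 had -0.22, COL7A1 1.24, COL8A1 -0.56, COL9A3 1.14 and COL16A1 1.43. COL4A1 fell in both lines, by more in PC3. Of the 13 calls, 8 were kept in all alternatives that gave a value. COL8A1 lost its call in 12 of 21, COL5A3 in 11, COL6A1 in 9, COL1A1 in 7 and COL9A3 in 5. Without PC3 siControl replicate 1 all 5 lost it, at -0.37, 1.43, -0.12, 0.31 and 1.15 in the same order, and without PC3 siLARP4B replicate 2 likewise, at -0.63, 2.29, -0.15, 0.28 and 0.87.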

How the results depend on the processing

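Over 209 gene results and 22 alternative settings, 4334 of 4501 values stayed on their side of the threshold, 64 of them with a change of sign (values at 0 in 1 setting included) while past it in neither, 127 lost a call, 35 gained one and 5 changed sign while past it in at least 1 setting. Of the expressed collagens called, 11 of 14 (PC3 siLARP4A), 14 of 16 (PC3 siLARP4B), 12 of 17 (MG63 siLARP4A) and 9 of 13 (MG63 siLARP4B) kept the call in all alternatives that gave a value, COL4A1 among them in all 4. These 5 came with limma on log2(FPKM + 1), a scale that shrinks low genes, in differences between lines: COL22A1 -0.67 for siLARP4A, and COL17A1 -0.39, COL4A6 -0.38, COL5A3 -0.34 and COL8A1 0.21 for siLARP4B. Leaving out 1 library gave 2697 to 4758 genes for siLARP4A in MG63 (4138 with all libraries), 1049 to 2038 for its difference between lines (1784), and 8 to 14 collagens for the siLARP4B difference (13), 8 being without PC3 siControl replicate 1. The first count was 2700, 2697 and 2699 without MG63 siControl replicate 1, siControl replicate 2 and siLARP4A replicate 1, and the next was 1061, 1049, 1175, 1094 and 1132 without each of MG63 siControl 1 and 2, MG63 siLARP4A 1 and 2 and PC3 siControl 1. The cause was not tested. The share of called genes that were higher in the siLARP4A difference was 35.9%. It was 51.7% with the longest model, 49.9% with symbols at several loci kept and 33.7% to 54.4% with 1 library left out. In the siLARP4B difference it was 37.0%, and 54.4% with limma. With COL7A1 counted as basement membrane, that sum was 79.25 FPKM in MG63 siControl, 110.9 in MG63 siLARP4A and 90.5 in PC3 siLARP4A. With the longest model, which changes COL18A1 and COL6A2, that sum was 69.7, 97.2 and 67.7 in MG63 (siControl, siLARP4A, siLARP4B). In PC3 it was 71.6, 81.1 and 80.1 in the same order. The other class was then 1767, 2083 and 2060 in MG63. COL6A3 led it in MG63 siControl and siLARP4A, in place of COL6A2. COL18A1 made up 41.7% of the PC3 siControl basement membrane sum, against 47.9% in the main setting. Level orders and ratios that involve COL18A1 or COL6A2 thus depend on the model. A replicate block, which treats same-numbered libraries of a line as paired, gave 13 (PC3 siLARP4A), 16 (PC3 siLARP4B), 17 (MG63 siLARP4A) and 13 (MG63 siLARP4B) collagens. Without it the counts were 15, 16, 18 and 13.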
